A study of Mus musculus with 18 samples.

Results

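Homeobox and paired-box transcription factors outside the Hox clusters were followed in mouse embryonic fibroblasts that lost the histone methyltransferase Ezh2. The genes were 56 members of the Alx, Dlx, Emx, En, Gsc, Irx, Lhx, Meis, Meox, Msx, Nkx, Otx, Pax, Pbx, Pitx, Prrx, Shox, sine oculis-related, Tlx and Vax families. They were taken by name from a list, each through a probe set that matched 1 gene symbol and, where a gene had several, the one with the highest mean. All 56 were measured among 18820 genes, and only Irx3 had 2 probe sets. The cells were clone C2, a line taken from 1 cell by limiting dilution of c-Myc-transformed fibroblasts (iMEFs) that carry 1 floxed and 1 deleted Ezh2 allele and an inducible Cre, CreERT2, at ROSA26. A time course held vehicle-treated cells and cells 5, 18 and 32 days after tamoxifen, the drug that activates this Cre. The labels give no day for the vehicle cells, so days in culture and tamoxifen itself cannot be told apart from Ezh2 loss there. A rescue experiment held control cells labelled Ezh2 WT, Ezh2 null cells (Ezh2 -/-), Ezh1 pre-rescue and Ezh2 pre-rescue cells, which received a retrovirus coding for Flag-Ezh1 or Flag-Ezh2 before the endogenous gene was deleted, and Ezh2 post-rescue cells, which received Flag-Ezh2 after it. Each of the 9 groups had 2 arrays, 18 in all, called biological replicates in the study without a word on separate cultures, so the p-values measure the spread between these arrays. RNA was measured in bulk, in which fewer cells of a type and less RNA per cell cannot be told apart.

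Homeobox genes encode a DNA-binding homeodomain, and most of those listed here set the identity of regions and cell types in the embryo. Pax proteins bind DNA through a paired domain, LIM-homeodomain factors add a pair of LIM protein-interaction domains, and TALE factors (Meis, Pbx, Irx) carry an extended homeodomain, with Meis and Pbx acting as partners of other homeodomain proteins. Ezh2 is the main catalytic subunit of Polycomb repressive complex 2 (PRC2), the enzyme complex behind the repressive histone mark H3K27me3. Promoters of such developmental factors, rich in CpG dinucleotides, are classical sites of PRC2 and H3K27me3, and Ezh1 is a second catalytic subunit with lower activity.

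The start regions of these genes were therefore read from RefSeq (build GRCm38.p6), as windows from 250 bases before to 50 bases after the transcription start. Of the 56 genes, 40 had an entry, with 50 windows in all. Alx1, Alx4, Dlx3, Dlx5, Dlx6, En2, Irx1, Irx5, Irx6, Lhx5, Meox1, Otx1, Pax3, Pbx3, Pitx1 and Vax2 had none. A window was called CpG-rich when at least 50% of its bases were G or C and the CpG count was at least 0.6 of that expected from its C and G content. By this measure 31 of the 50 windows (62.0%) were CpG-rich, against 33.5% of all 32851 windows. The median CpG count was 17 per window, against 7 over all windows. Among genes whose RNA was higher at day 18 or day 32, 17 of 25 windows (68.0%) were CpG-rich, and among genes that passed no test in any comparison 11 of 21 (52.4%). The homeodomain core motif TAATTA, which reads the same on both strands, was in 5 of the 50 windows (10.0%) and in 5.3% of all windows. A gene with several windows, such as Otx2, counted once for each window in all these shares. These are descriptions of letters in the window, not of occupied sites. The windows of 3 genes that carry the results are shown, with each CpG in capitals. In the time course Msx1 and Prrx2 rose together at the late days, and Pax9 fell at day 5 and rose at the late days. In the separate rescue experiment Pax9 stood highest in Ezh2 post-rescue cells.
Msx1: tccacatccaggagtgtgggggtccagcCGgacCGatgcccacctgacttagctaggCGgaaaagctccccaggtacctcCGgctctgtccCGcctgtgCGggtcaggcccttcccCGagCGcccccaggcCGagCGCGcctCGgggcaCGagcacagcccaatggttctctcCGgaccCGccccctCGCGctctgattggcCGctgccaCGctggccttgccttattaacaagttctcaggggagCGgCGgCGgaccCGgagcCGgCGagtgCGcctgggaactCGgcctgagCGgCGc
Prrx2: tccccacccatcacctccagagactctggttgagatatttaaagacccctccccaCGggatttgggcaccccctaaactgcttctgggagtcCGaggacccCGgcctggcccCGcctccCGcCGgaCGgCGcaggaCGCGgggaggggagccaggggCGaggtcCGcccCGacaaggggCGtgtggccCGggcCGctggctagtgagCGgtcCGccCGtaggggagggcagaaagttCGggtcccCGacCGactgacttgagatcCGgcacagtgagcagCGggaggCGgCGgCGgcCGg
Pax9: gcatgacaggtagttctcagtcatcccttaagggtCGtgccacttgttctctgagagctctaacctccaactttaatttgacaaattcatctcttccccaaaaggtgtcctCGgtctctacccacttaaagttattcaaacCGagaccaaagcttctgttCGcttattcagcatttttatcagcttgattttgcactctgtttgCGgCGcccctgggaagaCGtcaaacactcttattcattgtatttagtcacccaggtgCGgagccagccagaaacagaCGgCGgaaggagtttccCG
The Msx1 window lies at chr5:37824536-37824835 on the minus strand and holds 29 CpG, a count reached by 12.9% of all windows. The Prrx2 window, at chr2:30845117-30845416 on the plus strand, holds 28 CpG, and 14.2% of all windows hold as many. The Pax9 window, at chr12:56695221-56695520 on the plus strand, holds 11 CpG, as many as 41.4% of all windows reach, and with 47.0% G and C it fell short of the CpG-rich definition.

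Values were RMA log2 intensities, in which 1 unit is a doubling. The 2 experiments were normalized apart, with array medians of 4.98 to 5.08 in the time course and 6.16 to 6.27 in the rescue experiment, so levels were compared only within an experiment. Replicate arrays correlated across genes at 0.994 to 0.999, the pair of control arrays lowest. The 16 fibroblast markers were all above the 95th percentile of 1193 chemosensory receptor genes, a class silent in fibroblasts, in every group. The probe set for Ezh2 itself showed no fall. Its log2 difference from vehicle was 0.32 at day 18 (adjusted p = 0.02, limma) and 0.38 ± 0.08 (SE) at day 32 (adjusted p = 0.0068), both rises. In Ezh2 null cells it differed from control by 0.01. The deletion is therefore taken from the labels and from the study, which probed Ezh2 protein and H3K27me3 by Western blot. Ezh1 RNA fell at both late days, with differences of -0.63 and -0.99 (adjusted p = 0.00028 and 1.21e-05). Differences were tested in limma with Benjamini-Hochberg adjustment over all 18820 genes, and "rose" and "fell" are used only at an adjusted p under 0.05.

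After 5 days, few of the 56 factors passed the adjusted test, and 21 had an unadjusted p under 0.05 (limma). No share of all genes was computed for counts at an unadjusted p, here or below. Meox1, a factor of early somites, Irx3 and Irx5, neighbours in 1 Iroquois cluster, Emx2, a factor of forebrain and urogenital development, and Tlx1, needed for the spleen, rose. Dlx1, a Distal-less factor of forebrain interneurons and the face, and Pax9, a factor of teeth, palate and pharyngeal pouches, fell. These were 5 genes higher (8.93%) and 2 lower (3.57%), beside 11% of all genes higher and 5.72% lower, and the median change was -0.01, against -0.01 over all genes. The split depended on scaling. Centring each array on its median gave 2 higher (3.57%) and 15 lower (26.8%), beside 6.47% and 21.9% of all genes, and moved the median of all genes by -0.15. Quantile normalization gave 4 higher and 8 lower, beside 8.73% and 8.38% of all genes. Without day 5 replicate 2 the count was smaller, and so was the share of all genes called.

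The changes at day 5 ran in both directions. Dlx1 read 6.74 and 6.75 in vehicle cells and 5.78 and 5.94 at day 5, with both arrays below both vehicle arrays. Its difference was -0.88 ± 0.08 (SE, adjusted p = 0.000175, limma). Its cluster neighbour Dlx2 differed by -0.27 (adjusted p = 0.131). Pax9 read 4.84 and 4.81 in vehicle cells and 4.18 and 3.99 at day 5, a difference of -0.74 ± 0.09 (SE, adjusted p = 0.000528, limma). Meox1 went the other way, from 4.78 and 5.00 to 5.51 and 5.78, which is 0.75 ± 0.11 (SE, adjusted p = 0.00183, limma). The other 4 changes were between 0.31 and 0.51, and the Irx3 call was lost when its 2 probe sets were averaged (0.19, adjusted p = 0.179). Emx2, Irx5 and Tlx1 lost their calls without either day 5 array or under median centring, Tlx1 with an adjusted p of 0.0518 without day 5 replicate 1.

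At day 18 more of the factors rose than fell. Vax2, a ventral eye factor, Dlx5, a factor of bone, face and genital tubercle, Msx1, a factor of limb, tooth and face mesenchyme, Prrx2, a mesenchymal factor, Pax6, the eye and neural factor, and Lhx2, a factor of eye, forebrain and limb, rose by at least 2-fold. Altogether 20 of the 56 rose (35.7%) and 2 fell (3.57%), beside 15.2% and 10.5% of all genes. At least 2-fold higher were 6 of 56, beside 2.1% of all genes. Under median centring Pax6 (0.998) and Lhx2 (0.94) came out just under 2-fold. The median change of the 56 was 0.14, against -0.02 over all genes. With arrays centred on their medians, which moved the median of all genes by -0.18, the split was 14 higher (25%) and 8 lower (14.3%), beside 9.63% and 32.7% of all genes, so the total of 22 (39.3%) lay below the 42.3% of all genes called under that scaling. At day 32, tested against the same vehicle arrays, 18 were higher (32.1%) and 1 was lower (1.79%), beside 18.4% and 14.2% of all genes. Of these 18, 4 were at least 2-fold higher, beside 2.57% of all genes. The median change of the 56 at day 32 was 0.03, against -0.02 over all genes. At each late day 25 of the 56 had an unadjusted p under 0.05 (limma). Median centring gave 12 higher (21.4%) and 9 lower (16.1%) at day 32, beside 13.4% and 26.6% of all genes, with the median of all genes moved by -0.14.

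**Figure D1:**
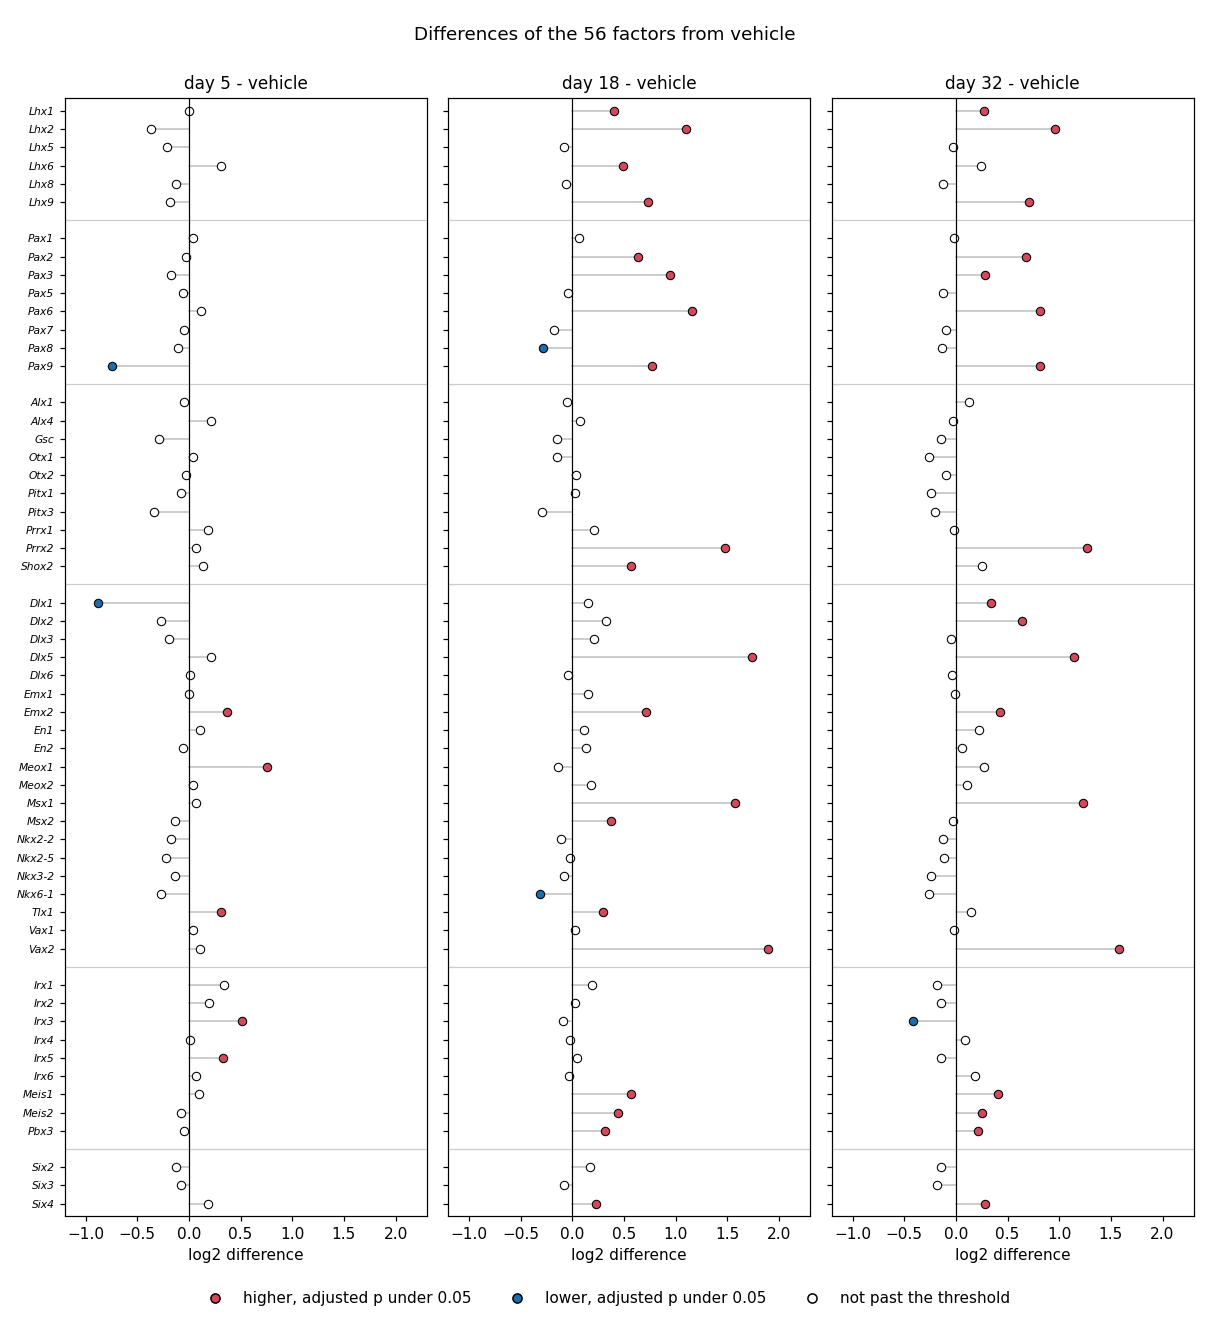
Log2 differences from vehicle (x axis) of the 56 factors (rows, grouped by family class and ordered by name) at day 5, day 18 and day 32. Filled points passed an adjusted p of 0.05. Day 5 has 5 filled points above 0 and 2 below it, day 18 has 20 and 2, and day 32 has 18 and 1.

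The late changes were shared by most classes and covered a part of each. The 16 genes that rose at both late days came from all 6 classes. Of the 6 LIM-homeodomain genes, 4 rose at day 18 and 3 at day 32. Of the 8 Pax genes, Pax2, Pax3, Pax6 and Pax9 rose on both days while Pax8, a thyroid and kidney factor, fell by 0.29 at day 18. Nkx6-1, a pancreas and motor neuron factor, fell by 0.31, and both falls were lost without vehicle replicate 1 (adjusted p = 0.182 and 0.2) or either day 18 array. Of the 20 NK, NK-like, Distal-less and Msh genes, 6 rose on each day. Of the 10 paired-type genes without a paired box, Prrx2 and Shox2, a factor of limb bone and heart pacemaker, rose at day 18, and only Prrx2 at day 32. Of the 9 TALE genes, Meis1, Meis2 and Pbx3 rose on both days, by 0.22 to 0.57, and none of the 6 Irx genes rose on either. Irx3 fell by 0.41 at day 32, a call lost without day 32 replicate 2 (adjusted p = 0.0557). The day 32 rises of Dlx1, Emx2, Lhx1, Meis2, Pax3, Pbx3 and Six4, all under 0.43, were lost without day 32 replicate 1, with adjusted p between 0.0544 and 0.293. The day 18 rises of Lhx6, Msx2, Pbx3 and Six4 were lost without day 18 replicate 1, with adjusted p between 0.054 and 0.126, and that of Tlx1 without day 18 replicate 2 (adjusted p = 0.186).

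Vax2 had the largest change from vehicle of the 56. It read 4.95 and 4.74 in vehicle cells, 4.82 and 5.07 at day 5, then 6.77 and 6.71 at day 18, before 6.39 and 6.45 at day 32. Both late pairs lay above all 4 earlier arrays. The difference was 0.10 at day 5 (adjusted p = 0.57), 1.90 ± 0.10 at day 18 (SE, adjusted p = 2.13e-06, limma) while day 32 gave 1.57 ± 0.10 (adjusted p = 4.55e-06). Its paralog Vax1, a factor of the optic stalk and hypothalamus, stayed between 4.66 and 4.84 on all 8 arrays.

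Msx1 and Prrx2 followed the same course. Msx1 read 4.73 and 4.67 in vehicle cells, 4.84 and 4.69 at day 5, then 6.20 and 6.35 at day 18, before 5.99 and 5.87 at day 32. It was higher by 1.57 ± 0.09 at day 18 (SE, adjusted p = 2.55e-06, limma), and the difference was 1.23 ± 0.09 by day 32 (adjusted p = 7.59e-06). Prrx2 read 7.91 and 7.99 in vehicle cells, 7.998 and 8.046 at day 5, then 9.49 and 9.37 at day 18, before 9.37 and 9.08 at day 32. For both genes the late arrays and the earlier arrays did not overlap. Prrx2 was 1.48 ± 0.10 above vehicle at day 18 (adjusted p = 7.76e-06), and the day 32 difference was 1.27 ± 0.10 (adjusted p = 1.27e-05). Their paralogs moved less. Msx2, a partner of Msx1 in the skull and limb, rose by 0.38 at day 18 (adjusted p = 0.018) and differed by -0.02 at day 32, and the day 18 call was lost under median centring and without vehicle replicate 2 or either day 18 array. Prrx1, the mesenchymal paralog of Prrx2, lay between 11.2 and 11.5 on all 8 arrays, with differences of 0.21 at day 18 (adjusted p = 0.0606) and -0.02 at day 32.

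Dlx5 read 4.32 and 4.26 in vehicle cells, 4.57 and 4.44 at day 5, then 5.83 and 6.23 at day 18, before 5.19 and 5.68 at day 32. The rise was 1.74 ± 0.16 at day 18 (SE, adjusted p = 6.19e-05, limma), then 1.15 ± 0.16 by day 32 (adjusted p = 0.000531), and the 2 arrays of each late day were further apart than those of vehicle cells. Dlx6, which shares its gene cluster with Dlx5, stayed between 4.11 and 4.39, with a difference of -0.04 at both late days. In the Dlx1-Dlx2 cluster, Dlx2 rose to 8.73 and 8.57 at day 32 from 7.92 and 8.10 in vehicle cells (0.64 ± 0.11, adjusted p = 0.00133), and Dlx1 rose by 0.34, a call that did not hold without day 32 replicate 1 (adjusted p = 0.0785). Dlx3, a skin and placenta factor, passed no test against vehicle.

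Pax6 read 4.28 and 3.99 in vehicle cells, 4.29 and 4.21 at day 5, then 5.24 and 5.33 at day 18, before 5.05 and 4.84 at day 32. It rose by 1.16 ± 0.11 at day 18 (SE, adjusted p = 6.34e-05, limma), and by day 32 it stood 0.81 ± 0.11 higher (adjusted p = 0.000361). Pax3, a neural crest and muscle precursor factor, read 3.98 and 4.11 in vehicle cells, 5.05 and 4.93 at day 18, before 4.43 and 4.22 at day 32. Between day 18 and day 32, 16 of the 56 had an unadjusted p under 0.05, with no share of all genes to set beside it. The median difference of the 56 was -0.10, against 0.01 over all genes. Only Pax3 was called, falling by 0.66 (adjusted p = 0.00598, limma), beside 4.15% of all genes called in that comparison. That fall was not called without day 18 replicate 1 (adjusted p = 0.0613) or day 32 replicate 2 (adjusted p = 0.0519). Pax2, a kidney and ear factor, rose by 0.64 and 0.68, and Pax9 reached 5.62 and 5.58 by day 18, then 5.56 and 5.70 by day 32, above the vehicle arrays that it had undercut at day 5. Its late differences were 0.77 ± 0.09 (adjusted p = 0.000164) and 0.81 ± 0.09 (adjusted p = 8.46e-05). Pax1, Pax5 and Pax7 passed no test in any comparison.

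Lhx2 read 4.63 and 4.56 in vehicle cells, 4.42 and 4.03 at day 5, then 5.61 and 5.78 at day 18, before 5.66 and 5.46 at day 32. Its rise was 1.1 ± 0.13 at day 18 (SE, adjusted p = 0.000226, limma), with 0.96 ± 0.13 left by day 32 (adjusted p = 0.000345). Lhx9, a gonad and limb factor, rose by 0.73 and 0.70. Lhx1, a factor of kidney and head organizer, rose by 0.40 and 0.27, and Lhx6, a factor of interneurons and tooth mesenchyme, by 0.48 at day 18, with 0.24 at day 32 (adjusted p = 0.174). The day 32 call of Lhx1 and the day 18 call of Lhx6 were each lost under median centring and without 3 of the 4 arrays compared, one at a time. Lhx5 and Lhx8 passed no test.

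**Figure D2:**
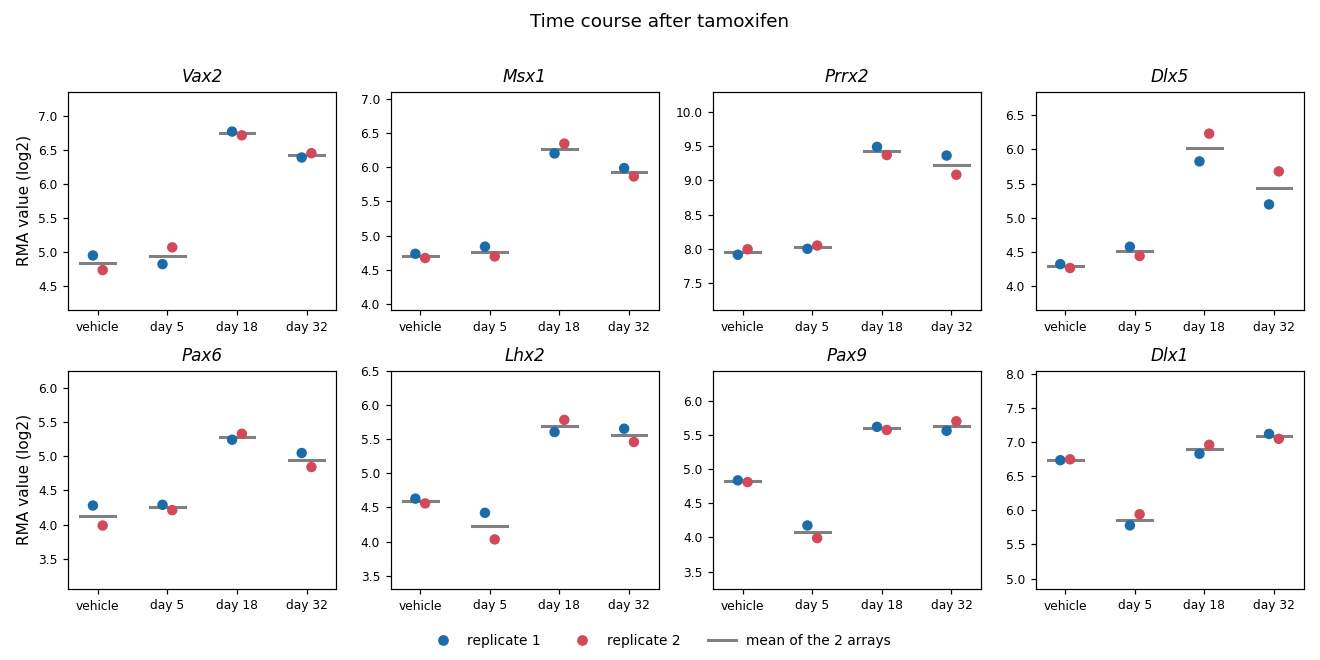
RMA log2 values (y axis, each panel spanning the same 3.2 units) of 8 factors on the 8 arrays of the time course, with a bar at the mean of the 2 arrays of a group. Vax2, Msx1, Prrx2, Dlx5, Pax6 and Lhx2 rose by day 18, and Pax9 and Dlx1 were lowest at day 5.

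Against day 5 instead of vehicle, 21 of the 56 were higher at day 18 (37.5%) and 3, Meox1, Irx3 and Irx5, were lower (5.36%), beside 15.6% and 16.1% of all genes. Pax9 was 1.52 and Dlx1 1.03 higher than at day 5. Against vehicle, 10 genes rose at both late days under each other normalization, filter and variance model and without each array in turn. They were Dlx5, Lhx2, Lhx9, Meis1, Msx1, Pax2, Pax6, Pax9, Prrx2 and Vax2. Calls were followed in this way for the 56 alone, so neither this count nor the next has a share of all genes beside it. Of the 87 changes called for the 56 genes in all comparisons, 37 were lost under at least 1 such alternative, and none changed sign.

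Markers of cell types also moved. At day 5, 7 of the 16 fibroblast markers rose and 1 fell, and 3 of 6 cartilage markers fell. Of 10 measured neural markers, Map2, Ncam1, Nes and Syt1 rose and Sox2 fell at day 18, and 6 of the 10 were above the chemosensory range in each group of the time course. Their summed level was 10.3 in vehicle cells on the log2 scale and 10.6 at day 18. All 6 cartilage markers fell on both days, with a median of -1.26 at day 18 and -1.35 at day 32, and of 16 fibroblast markers 7 fell and 2 rose at day 18 and 8 fell and 1 rose at day 32. Of 6 measured neural crest and glia markers, Erbb3, Gfap and Mitf fell on both late days, and the summed level of that list went from 9.29 and 9.36 on the vehicle arrays to between 8.15 and 8.38 at the late days. The part of these lists in the results for the 56 factors was not tested.

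In the rescue experiment fewer genes passed the test, and the 4 of the 56 that did in Ezh2 null cells were Vax2, Pax9, Msx1 and Pax6, all higher than in control cells. This is 7.14%, beside 1.2% of all genes higher. None was lower, beside 0.755% of all genes, and 15 of the 56 had an unadjusted p under 0.05. The median change was -0.02 over the 56 genes and -0.03 over all genes. Vax2 read 5.88 and 5.88 in control cells and 7.55 and 7.15 in Ezh2 null cells, a difference of 1.47 ± 0.15 (SE, adjusted p = 0.00614, limma). Pax9 read 5.77 and 5.61 in control cells and 6.49 and 6.48 in Ezh2 null cells (0.79 ± 0.14, adjusted p = 0.0369). Msx1 went from 5.91 and 5.83 to 6.77 and 6.41 (0.73 ± 0.11, adjusted p = 0.0213), and Pax6 from 5.51 and 5.38 to 5.89 and 6.05 (0.52 ± 0.09, adjusted p = 0.0401). In each of the 4 genes both Ezh2 null arrays lay above both control arrays. Here and in the time course, genes described this way were picked by calls on the same arrays, so such gaps add no support. Without control replicate 2 the calls of Msx1 (adjusted p = 0.0605), Pax6 (adjusted p = 0.0921) and Pax9 (adjusted p = 0.115) were lost. Pax6 and Pax9 also lost theirs without either Ezh2 null array. Under median centring the Pax6 call was lost too (0.45, adjusted p = 0.102, limma).

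Other factors with large late changes were less certain in this experiment. Prrx2 read 8.48 and 8.89 in control cells and 9.69 and 9.51 in Ezh2 null cells, 0.91 ± 0.19 apart, with an adjusted p of 0.0646. Lhx2 differed by 0.50 ± 0.13 (adjusted p = 0.121). Dlx5 stood at 5.88 and 5.95 in control cells but at 6.89 and 5.87 in the Ezh2 null arrays, so the groups overlapped (0.46 ± 0.34, adjusted p = 0.588). Of 6 cartilage markers, Col2a1 and Col9a1 fell in Ezh2 null cells, and of 10 neural markers none was called, with the summed level of the neural list at 10.7 and 11.2 on the control arrays and at 11.3 on both Ezh2 null arrays. Their part in these values was not tested.

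The time course and the rescue experiment share no arrays. All 16 genes higher at both late days had a positive difference in Ezh2 null cells, with a median of 0.42, and 4 of them (25%) were called there. Of all 2472 genes higher at both late days, 84.4% had a positive difference, with a median of 0.17, and 8.13% were called. Across the 56 factors, the day 32 difference and the Ezh2 null difference correlated with a Pearson r of 0.80 and a Spearman rho of 0.64, a description over genes of 1 clone, which are not independent replicates. The difference between the 2 effects passed the test for 2 of the 56, Dlx1 and Meox1, beside 8.12% of all genes.

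**Figure D3:**
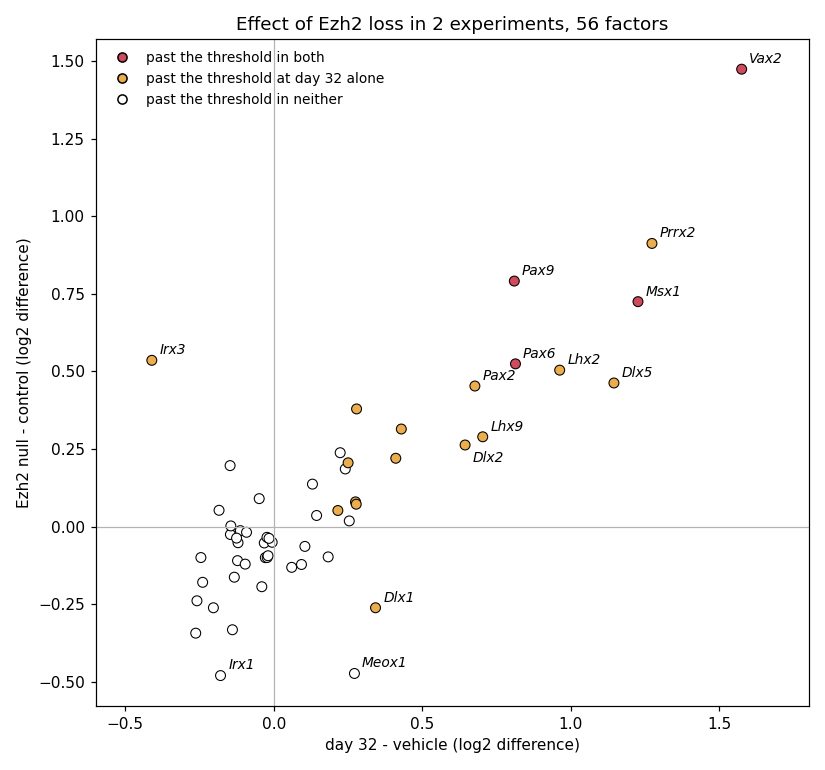
Log2 difference at day 32 from vehicle (x axis) against the log2 difference of Ezh2 null from control cells (y axis) for the 56 factors, coloured by the comparisons that they passed. Vax2 lies highest on both axes at 1.57 and 1.47, and Dlx1 and Meox1 lie right of 0 and below it.

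Vax2 stood at the control level in each kind of rescue. Ezh1 pre-rescue cells read 5.69 and 6.02, Ezh2 pre-rescue cells 5.86 and 5.82, then Ezh2 post-rescue cells 5.88 and 5.999. All 6 arrays were at least 1 unit below both Ezh2 null arrays. Against control, the difference was -0.02 (95% interval -0.38 to 0.33) for Ezh1 pre-rescue, -0.04 (-0.39 to 0.32) for Ezh2 pre-rescue and 0.06 (-0.30 to 0.41) for Ezh2 post-rescue. Against Ezh2 null it fell by 1.499 ± 0.15 with Ezh1 pre-rescue (SE, adjusted p = 0.00874, limma), by 1.51 ± 0.15 with Ezh2 pre-rescue (adjusted p = 0.0047), then by 1.42 ± 0.15 with post-rescue (adjusted p = 0.0137). These 3 calls were lost without Ezh1 pre-rescue replicate 1 (-1.30, adjusted p = 0.0822), without either Ezh2 pre-rescue array (adjusted p = 0.0525 and 0.0706) and without either Ezh2 post-rescue array (adjusted p = 0.205 and 0.112), with the direction kept.

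Pax9 behaved differently. Its Ezh1 pre-rescue arrays read 5.78 and 6.02, its Ezh2 pre-rescue arrays 5.72 and 5.88, but its Ezh2 post-rescue arrays 8.05 and 7.72, above all other arrays of the experiment. The post-rescue difference was 2.19 ± 0.14 from control (SE, adjusted p = 0.0027, limma), a 4.57-fold change, 1.40 ± 0.14 from Ezh2 null (adjusted p = 0.0118) and 2.09 ± 0.14 from Ezh2 pre-rescue cells (adjusted p = 0.00235). The excess over Ezh2 null missed the threshold without Ezh2 post-rescue replicate 1 (1.21, adjusted p = 0.119) or 2 (1.598, adjusted p = 0.0535). Pax1, the closest paralog of Pax9, read 5.94 and 6.05 in Ezh2 post-rescue cells and 6.20 and 5.82 in control cells. Pax9 was the only one of the 56 called between Ezh2 post-rescue and control cells, beside 0.707% of all genes, and the only one called between Ezh2 post-rescue and Ezh2 pre-rescue cells, beside 0.882%. Under median centring 2 of the 56 were called in the first of these, beside 1.04% of all genes. Without control replicate 2 the count and the share of all genes were larger too. Pax9 and Vax2, in opposite directions, were the 2 called between Ezh2 post-rescue and Ezh2 null cells, beside 0.6% of all genes.

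For the 2 genes given before the deletion, no factor was called between Ezh1 pre-rescue and control cells, beside 0.0106% of all genes, with 5 of the 56 at an unadjusted p under 0.05. None was called between Ezh2 pre-rescue and control cells, beside 0% of all genes, with 3 at that unadjusted p. Without control replicate 2, which leaves 1 control array, both comparisons had called factors, and the shares of all genes called were larger too. Against Ezh2 null, Vax2 alone was called in Ezh1 pre-rescue cells, beside 2.3% of all genes, and Vax2, Msx1 and Pax9 were called in Ezh2 pre-rescue cells, beside 7.14%, all lower. The main test of this experiment included a replicate term. Without that term 5 and 6 of the 56 were called, beside 4.56% and 10.1% of all genes. The 3 calls of Ezh2 pre-rescue were all lost without either Ezh2 pre-rescue array. Marker genes moved in the same comparisons. In Ezh2 pre-rescue cells Col2a1, Col9a1, Hapln1 and Sox9, 4 of the 6 cartilage markers, and 5 of the 16 fibroblast markers were higher than in Ezh2 null cells, and 3 fibroblast markers were higher in Ezh1 pre-rescue cells. The summed level of the cartilage list was 11.1 and 11.5 on the Ezh2 null arrays and 12.2 and 12.5 on the Ezh2 pre-rescue arrays, and that of the fibroblast list 14.5 and 14.7 against 15.2 and 15.3. Their part in the falls of the 3 factors was not tested. Between Ezh1 pre-rescue and Ezh2 pre-rescue cells none of the 56 was called, beside 0.00531% of all genes, and none had an unadjusted p under 0.05. The difference between these 2 rescues was 0.01 for Vax2 (95% interval -0.34 to 0.37), 0.10 for Pax9 (-0.22 to 0.42) and 0.21 for Msx1 (-0.05 to 0.47).

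Msx1, Prrx2 and Dlx5 gave intermediate or high values in Ezh2 post-rescue cells without a call. Msx1 read 6.08 and 6.04 with Ezh1 given first, 5.89 and 5.80 with Ezh2 given first, then 6.25 and 6.34 with Ezh2 given after the deletion, the last pair lying between control and Ezh2 null arrays (0.42 from control, adjusted p = 0.194, and -0.30 from Ezh2 null, adjusted p = 0.278). Prrx2 read 9.89 and 9.40 in Ezh2 post-rescue cells, 0.96 ± 0.19 from control (adjusted p = 0.0981) and 0.05 from Ezh2 null (95% interval -0.40 to 0.49). Pax6 and Lhx2 were near control in Ezh2 post-rescue cells, with differences of 0.05 (95% interval -0.17 to 0.27) and -0.02 (-0.33 to 0.29). Dlx5 read 6.76 and 6.24 there, with a wide interval around its difference of 0.58 from control (-0.22 to 1.38).

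**Figure D4:**
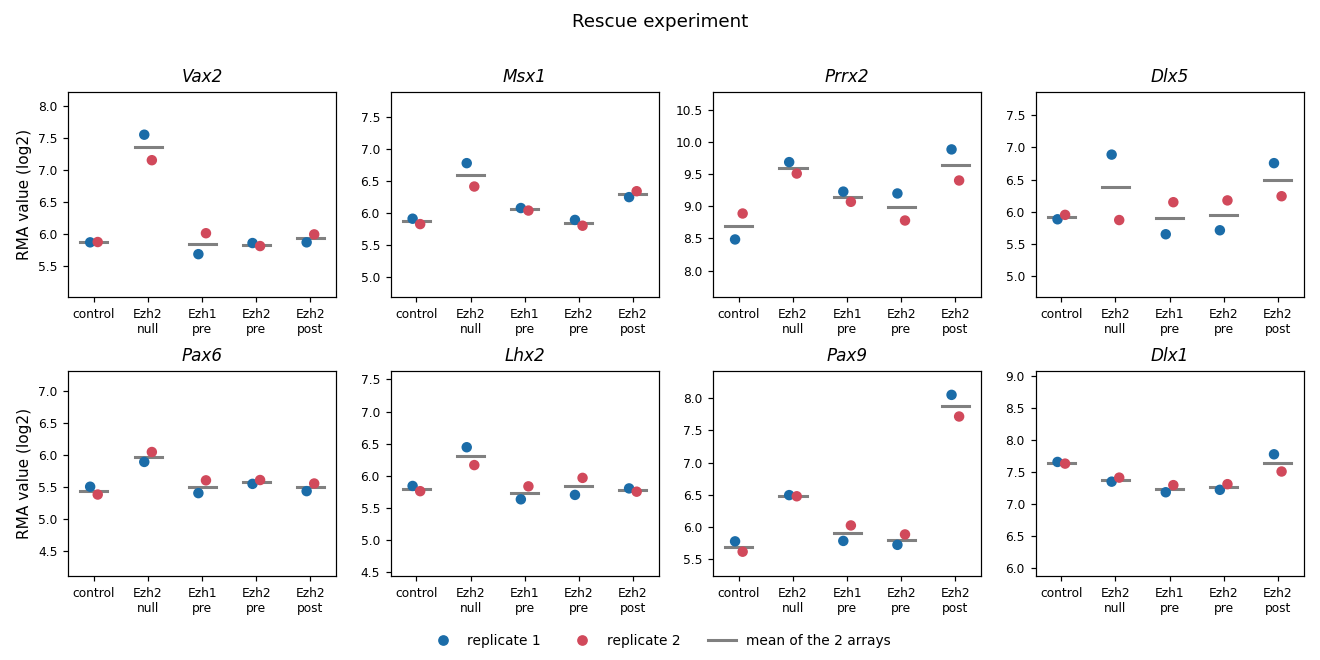
RMA log2 values (y axis, each panel spanning the same 3.2 units) of 8 factors on the 10 arrays of the rescue experiment, with a bar at the mean of the 2 arrays of a group. Vax2 is high in Ezh2 null cells alone, and Pax9 is highest in Ezh2 post-rescue cells at 8.05 and 7.72.

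**Figure D5:**
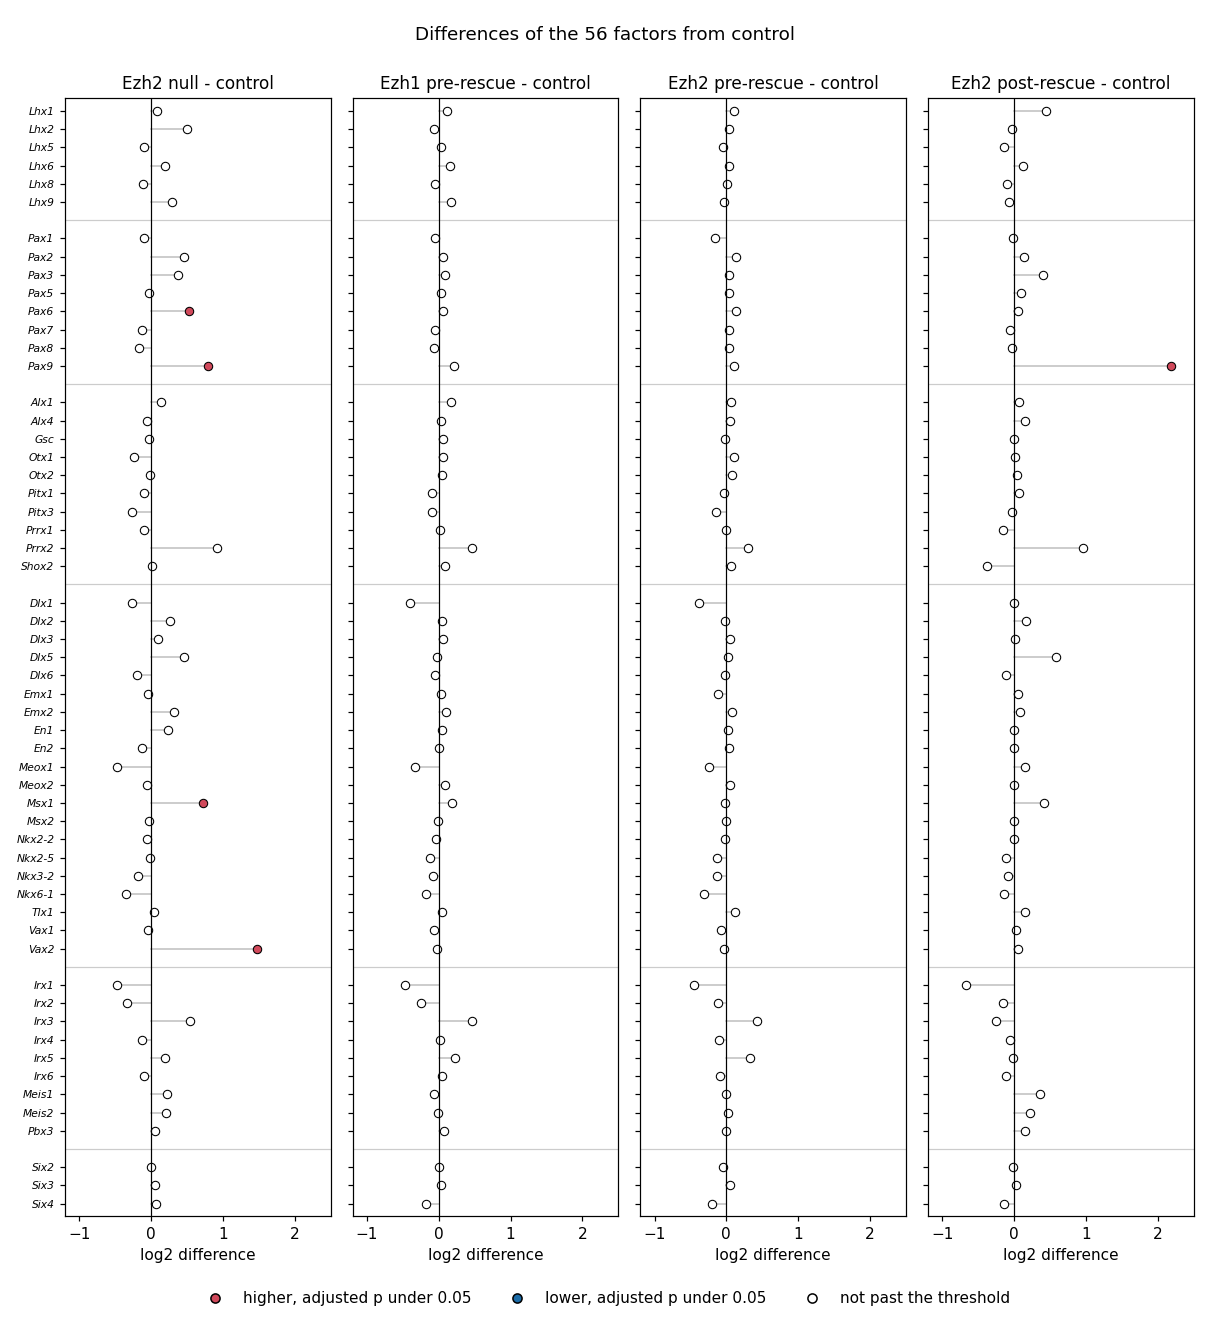
Log2 differences from control (x axis) of the 56 factors (rows, grouped by family class) in Ezh2 null, Ezh1 pre-rescue, Ezh2 pre-rescue and Ezh2 post-rescue cells. Filled points passed an adjusted p of 0.05, with 4 in Ezh2 null cells, none in either pre-rescue and 1, Pax9, in Ezh2 post-rescue cells.

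In all, 29 of the 56 factors (51.8%) passed a test in at least 1 of the 15 comparisons, a share near the 47.8% of all genes that did, and 27 passed none. The 27 were Alx1, Alx4, Dlx6, Emx1, En1, En2, Gsc, Irx1, Irx2, Irx4, Irx6, Lhx5, Lhx8, Meox2, Nkx2-2, Nkx2-5, Nkx3-2, Otx1, Otx2, Pax1, Pax5, Pax7, Pitx1, Pitx3, Prrx1, Six3 and Vax1. Their differences lay between -0.29 and 0.21 at day 18, between -0.26 and 0.22 at day 32 and between -0.48 and 0.24 in Ezh2 null cells. They were wider at day 5, from -0.34 to 0.34, and in Ezh2 post-rescue cells, from -0.67 to 0.15 of control, where Irx1 was lowest (adjusted p = 0.149, unadjusted p = 0.00296, limma). Of the 27, 11 had an unadjusted p under 0.05 in some comparison. Several of these were not low. En1, a midbrain and limb factor, lay between 7.79 and 8.11 on the time course arrays, and Irx1 and Irx2, from the other Iroquois cluster, between 7.44 and 8.49. Probe sets differ in their own background, so these values give no order between genes. By gene, 36 of the 56 stood above the 95th percentile of the chemosensory genes in every group of both experiments. En2, Lhx5, Nkx2-2, Otx2, Pax5 and Six2 stood above it in no group. In single groups 38 to 49 of the 56 did, beside 64.3% to 68.1% of all genes. Among genes called against vehicle, Pax3 and Tlx1 stood above it in only some time course groups. Msx2, Nkx6-1 and Tlx1 did so in no group of the rescue experiment.

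Among 75 measured homeobox genes outside Hox that are not in the list of 56, 9 rose (12%) and 3 fell (4%) at day 18, beside 15.2% and 10.5% of all genes, and 9 rose (12%) and 7 fell (9.33%) at day 32, beside 18.4% and 14.2%. In Ezh2 null cells 2 rose, Onecut2 (1.11 ± 0.13, adjusted p = 0.00906, limma), a factor of liver, pancreas and motor neurons, and Dlx4 (0.69 ± 0.09, adjusted p = 0.0147), a neighbour of Dlx3. Both had also risen at day 18, by 1.43 and 0.44. Tshz2, a teashirt zinc-finger factor with a homeodomain, rose by 1.17 at day 18, and Pknox2, a TALE factor, fell by 1.17. Among 24 measured PRC2 and PRC1 subunits, 10 rose (41.7%) and 4 fell (16.7%) at day 18, and in Ezh2 null cells only Phf19, a PRC2 accessory subunit, was called, and it was higher.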

How the data were processed

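RNA of clone C2 was hybridised to 18 Affymetrix Mouse Gene 1.1 ST arrays, 8 in the time course and 10 in the rescue experiment. The deposited values are log2 intensities per probe set that the authors made with RMA in the R package oligo. For the rescue experiment they state a limma correction of a batch difference between first and second replicates, and whether the deposited values carry it is not stated. Of 28440 probe sets, 21217 matched 1 gene symbol, 1881 several and 5342 none, giving 18820 genes by the probe set with the highest mean. The number of arrays, 2 per group, limits the precision. The genome build of the arrays is not given in the sources used here.

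Each experiment was fitted in limma 3.58.1 (R 4.3.3, lmFit and eBayes), the rescue experiment with the replicate number as a block. The Ezh2 null effect was set against the day 32 effect in 1 model over the 18 arrays. Residual degrees of freedom were 4, 4 and 8. The study used rank products, not run here, and its thresholds (adjusted p under 0.15 and 2-fold) were an alternative, beside quantile normalization, median centring, no lowest 30% of genes, a variance trend, averaged probe sets, the block reversed, and each array left out. The members, lists and tests were chosen with earlier results of these data known. Values on every array are given for genes called at 2-fold or more against vehicle or control. Values of Dlx1, Dlx2, Meox1, Pax3, Lhx9, Onecut2, Dlx4, Tshz2 and Pknox2 were chosen after they were seen. Marker lists of fibroblast, neural, neural crest and glia, skeletal muscle, cartilage, epithelial, endothelial, blood and pluripotent cells were counted. Those not named with the results had at most 2 genes called in any comparison.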

Additional observations from a re-analysis of the deposited data

Results flagged for a closer look

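For Dlx1 and Meox1 the difference of Ezh2 null cells from control was unlike that of day 32 from vehicle. This came from a test of the difference itself in the fit of all 18 arrays. For Dlx1 the Ezh2 null effect was lower than the day 32 effect by a log2 difference of -0.60 (adjusted p = 0.0169, limma), with 0.34 at day 32 and -0.26 in Ezh2 null cells. For Meox1 the difference of effects was -0.75 (adjusted p = 0.0226, limma), with 0.27 at day 32 and -0.47 in Ezh2 null cells. The Dlx1 call was lost under quantile normalization and without vehicle replicate 1, day 32 replicate 1 or Ezh2 null replicate 1, and the Meox1 call under median centring and without vehicle replicate 1, day 32 replicate 1, control replicate 1 or Ezh2 null replicate 2, with adjusted p values of up to 0.103. The 2 experiments were normalized apart and differ in the making of the cells, and the labels give no time after deletion for the rescue experiment. The part of these in the difference was not tested.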

How the results depend on the processing

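The 12 called changes of at least 2-fold against vehicle or control kept their direction and an adjusted p under 0.05 in all 120 alternatives run for them. Their size did not always stay at 2-fold. Of the 14 called changes of at least 2-fold in other comparisons, 4 were lost without 1 array, those of Vax2 in each kind of rescue and of Pax9 in Ezh2 post-rescue cells, all against Ezh2 null, with no change of direction. Counts of called genes moved by over 1.5 times as follows. The study's thresholds were an adjusted p under 0.15 and at least 2-fold. They gave 0 at day 5, 6 at day 18 and 4 at day 32, beside 1.15%, 3.04% and 4.23% of all genes. Day 18 against day 5 gave 9, beside 4.66% of all genes, and day 32 against day 18 gave 0, beside 0.234%. Ezh2 null cells gave 1, beside 1.24%, and Ezh2 pre-rescue against Ezh2 null gave 1, beside 1.57%. The difference of effects gave 0, beside 1.99%. Median centring gave 17 at day 5, beside 28.4% of all genes, and 2 for day 32 against day 18, beside 4.42%. It gave 2 for Ezh2 post-rescue against control, beside 1.04%, and 1 for the difference of effects, beside 6.77%. Quantile normalization gave 12 at day 5, beside 17.1% of all genes, and 2 for day 32 against day 18, beside 4.61%. For Ezh1 and Ezh2 pre-rescue against Ezh2 null it gave 4 and 5, beside 3.59% and 9.4%. Without the lowest 30% of genes, day 32 against day 18 gave 3, beside 8.18% of the genes kept. Ezh1 pre-rescue against Ezh2 null gave 3 there, beside 3.74%. With a variance trend these counts were 4 and 2, beside 7.96% and 3.37% of all genes. Leaving out each array in turn gave 4 to 9 at day 5, 16 to 21 at day 18, 13 to 20 at day 32, 20 to 21 for day 18 against day 5, 0 to 1 for day 32 against day 18, 3 to 4 in Ezh2 null cells, 0 to 2, 0 to 1 and 1 to 2 for Ezh1 pre-rescue, Ezh2 pre-rescue and Ezh2 post-rescue against control, 0 to 2, 0 to 3 and 0 to 2 for them against Ezh2 null, and 0 to 4 for the difference of effects, and a lone array was taken to vary like the other groups. The cause of these moves was not tested.

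In the time course, deviations of same-numbered arrays correlated at -0.07 to 0.05, and replicate numbers were not taken to pair the arrays. In the rescue experiment, where the study's methods tie the replicate number to a batch and the test kept it as a block, these correlations ran from -0.43 to 0.54, with 6 of 10 pairs negative. Whether a batch correction of the deposited values plays a part in that was not tested. With the replicate block added, the counts were 6 at day 5, 22 at day 18 and 18 at day 32. The shares of all genes in that fit were 15.6%, 24.5% and 31.8%. In the rescue experiment the fit without the replicate block called 5 genes for Ezh1 pre-rescue and 6 for Ezh2 pre-rescue against Ezh2 null. The shares of all genes were 4.56% and 10.1%. In Ezh2 null cells it called 4, as with the block, beside 3.16% of all genes. With 2 arrays per group, a change that missed the threshold is not shown to be absent.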
